A study of Mus musculus with 9 samples.

Results

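The data described are the values of 10 acid-base genes of renal intercalated cells, out of 32427 genes in the matrices of 9 mouse kidneys. The members were taken by name, with earlier results of these data known, and all 10 were present in every matrix. *Atp6v1g3*, *Atp6v0d2*, *Atp6v1b1*, *Atp6v0a4* and *Atp6v1c2* encode subunits of the vacuolar proton pump. *Slc4a1*, *Slc4a9* and *Slc26a4* encode anion exchangers, *Foxi1* encodes a forkhead transcription factor and *Car2* encodes cytosolic carbonic anhydrase 2. Each kidney gave 1 single-cell RNA library, and the mice were male C57BL/6, 6 weeks old at the start. The Control group (n = 3 mice) received saline. The AKI-CKD group (n = 3) received cisplatin, a nephrotoxic drug, at 8 mg/kg into the peritoneum once weekly for 4 weeks. The AKI-CKD + EGT group (n = 3) received the same cisplatin and the dietary antioxidant ergothioneine (EGT) at 0.5 mg/mL in drinking water, begun 3 days before the cisplatin. Kidneys were taken after 8 weeks. No group received EGT without cisplatin, so EGT was measured only on top of cisplatin.

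Intercalated cells (IC) are scattered among the principal cells (PC) of the connecting tubule and collecting duct and move acid and base. In type A cells the proton pump lies on the urinary side and *Slc4a1* (AE1) returns bicarbonate to the blood. In type B cells *Slc26a4* (pendrin) secretes bicarbonate into the urine and *Slc4a9* (AE4) lies on the blood side. Carbonic anhydrase 2 supplies protons and bicarbonate in both, and *Foxi1* is required for the expression of several of the pump and exchanger genes. *Slc4a1* is also the anion exchanger of red blood cells.

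Of 216680 barcodes, 196925 cells were kept, 17196 to 27463 per mouse, with a median of 2534 to 2966 unique molecular identifiers (UMIs, counted RNA molecules) per cell. Cell names are running numbers and 3583 to 7810 of them recurred between any pair of libraries, but 0 cells shared name, UMI total and gene total. The IC cluster held 1317 cells, 0.669% of those kept, with a median of 3287 UMIs. All 12 IC markers, among them *Hepacam2*, *Aqp6*, *Rhbg*, *Insrr* and *Kit*, were raised at least 2-fold in it, and the 10 members were used neither to form nor to name the clusters. IC cells numbered 135, 165 and 71 in the Control mice, 147, 108 and 87 in the AKI-CKD mice and 77, 165 and 362 in the AKI-CKD + EGT mice. A pair of mice stood apart. In the third AKI-CKD + EGT mouse 48.1% of IC cells had UMIs of at least 3 IC markers and in the first Control mouse 59.3% did, against 78.2 to 95.4% in the other 7. IC cells without a UMI of any member made up 8.29% and 8.15% in those mice and at most 1.30% in the others. Their IC also had the highest mitochondrial shares, 7.09% and 5.19%. A mitochondrial limit of 10% left 216 of 362 and 102 of 135 of their IC cells. The filter on cells had kept 17255 of 23876 and 22985 of 27994 of their barcodes. For the members named with the EGT comparison, the value without the third EGT mouse is therefore given too.

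RefSeq promoters (build GRCm38.p6, 250 bases before the transcription start) were available for 6 of the 10 members and were searched for the forkhead core TAAACA on both strands, because *Foxi1* is a forkhead factor. The core was in the *Atp6v1b1* promoter, 98 bases before the start, in its longer form GTAAACA, and not in the windows of *Atp6v1g3*, *Atp6v0a4*, *Atp6v1c2*, *Slc26a4* and *Foxi1*. Among all 32851 promoters of this length 12.03% held TAAACA and 3.17% held GTAAACA, which contains it. Shown are *Atp6v1b1*, with the motif as it reads on the printed strand in capitals, and *Atp6v1g3* and *Atp6v1c2*, the pump genes whose levels differed between kinds of IC. A match is a run of letters and was not tested for binding.
Atp6v1b1, chr6:83742767-83743016, + strand: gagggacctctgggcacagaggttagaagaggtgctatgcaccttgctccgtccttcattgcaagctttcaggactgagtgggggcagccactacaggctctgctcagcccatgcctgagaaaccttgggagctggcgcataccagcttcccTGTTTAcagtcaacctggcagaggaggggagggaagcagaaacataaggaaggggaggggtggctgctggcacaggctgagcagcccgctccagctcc
Atp6v1g3, chr1:138273488-138273737, + strand: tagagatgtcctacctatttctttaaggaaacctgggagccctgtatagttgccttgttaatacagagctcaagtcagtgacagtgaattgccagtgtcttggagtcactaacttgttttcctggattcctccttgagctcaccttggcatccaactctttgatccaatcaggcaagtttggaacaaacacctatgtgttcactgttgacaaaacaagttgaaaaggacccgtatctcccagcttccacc
Atp6v1c2, chr12:17324731-17324980, - strand: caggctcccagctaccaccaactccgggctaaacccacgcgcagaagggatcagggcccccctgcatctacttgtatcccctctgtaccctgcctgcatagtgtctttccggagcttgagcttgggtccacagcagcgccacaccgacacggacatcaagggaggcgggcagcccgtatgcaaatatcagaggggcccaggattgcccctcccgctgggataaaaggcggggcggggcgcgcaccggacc

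All 10 members had their highest mean level in IC. Levels are counts per 1000000 UMIs (CPM) in the summed cells of a type, mean ± SD over 9 mice, and since the cell types were clustered from the same cells they are a description with no test. The pump subunits measured 6829.6 ± 1583 CPM for *Atp6v1g3*, 805 ± 177 CPM for *Atp6v1b1* and 669.8 ± 95.0 CPM for *Atp6v0d2*. *Atp6v0a4* measured 549.8 ± 84.5 CPM and *Atp6v1c2* 537 ± 109 CPM. Levels of different genes are not ranked here, because counts of transcript ends depend on how well each end is captured.

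The exchangers measured 911 ± 207 CPM for *Slc26a4*, 652 ± 117 CPM for *Slc4a9* and 559.5 ± 195 CPM for *Slc4a1*. *Foxi1* measured 477 ± 148 CPM and *Car2* 1809 ± 317 CPM. The third AKI-CKD + EGT mouse was the lowest for 5 members and the first Control mouse for 4. The former included *Atp6v1g3*, *Slc4a1* and *Foxi1*, whose IC levels ran over 3759 to 8522 CPM, 222 to 861 CPM and 195 to 670.4 CPM.

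Outside IC the members fell into 3 patterns. *Atp6v1g3*, *Atp6v0d2*, *Atp6v1c2*, *Foxi1* and the 3 exchangers were low in the proximal tubule (PT), the reabsorbing segment that gave 135059 of the cells. PT levels were 11.3 ± 14.9 CPM for *Atp6v1g3*, 2.98 ± 2.30 CPM for *Slc26a4*, 2.10 ± 2.57 CPM for *Slc4a9*, 0.852 ± 0.812 CPM for *Slc4a1* and 0.737 ± 0.756 CPM for *Foxi1*. The highest PT value of *Atp6v1g3*, 50.04 CPM, came from the mouse with 362 IC cells. The IC level of *Atp6v1g3* was 996 times that of PT in the median mouse, with a range of 75.1 to 2392 times.

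*Atp6v1b1* also had a level along the distal nephron. It measured 171 ± 36.8 CPM in PC, 81.3 ± 27.1 CPM in the connecting tubule, 75.5 ± 16.7 CPM in the loop of Henle and 70.2 ± 12.3 CPM in the distal convoluted tubule, against 4.54 ± 5.22 CPM in PT and 8.75 ± 7.49 CPM in T cells. The last 3 distal levels lay within their spread of each other. IC exceeded PC by 4.04 to 5.96 times in the 9 mice.

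*Atp6v0a4* and *Car2* were counted in every cell type. In PT they measured 119 ± 10.5 CPM and 296 ± 45.5 CPM, and in PC 187 ± 19.8 CPM and 337 ± 55.7 CPM. They were also counted in T cells, at 73.8 ± 21.7 CPM and 185 ± 48.4 CPM, and the part of RNA free in the suspension in the low levels outside IC was not tested. With every cell thinned to 1000 UMIs, *Car2* was detected in 70.9% of IC, 23.3% of PT and 11.2% of T cells in the median mouse, and *Atp6v1g3* in 88.3%, 0.675% and 0.641%.

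The members also differed in where most of their RNA lay. In the median mouse IC held 82.5% of all *Atp6v1g3* UMIs (50.8 to 92.9% over the 9 mice), 82.1% of *Slc4a1* (50.8 to 93.5%), 81.3% of *Slc4a9* (44.9 to 90.8%) and 79.4% of *Foxi1* UMIs (50.5 to 92.0%). They held 71.7% for *Atp6v0d2* (51.8 to 87.7%), 68.8% for *Slc26a4* (49.0 to 82.8%) and 58.5% for *Atp6v1c2* (41.4 to 78.0%), and the ranges of these 7 members overlapped. For *Atp6v1b1* the share was 31.5% (23.3 to 46.2%). Of *Car2* and *Atp6v0a4* they held 4.73% (2.46 to 8.48%) and 3.54% (1.59 to 6.26%), and PT held 75.7% and 75.6%.

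**Figure D1:**
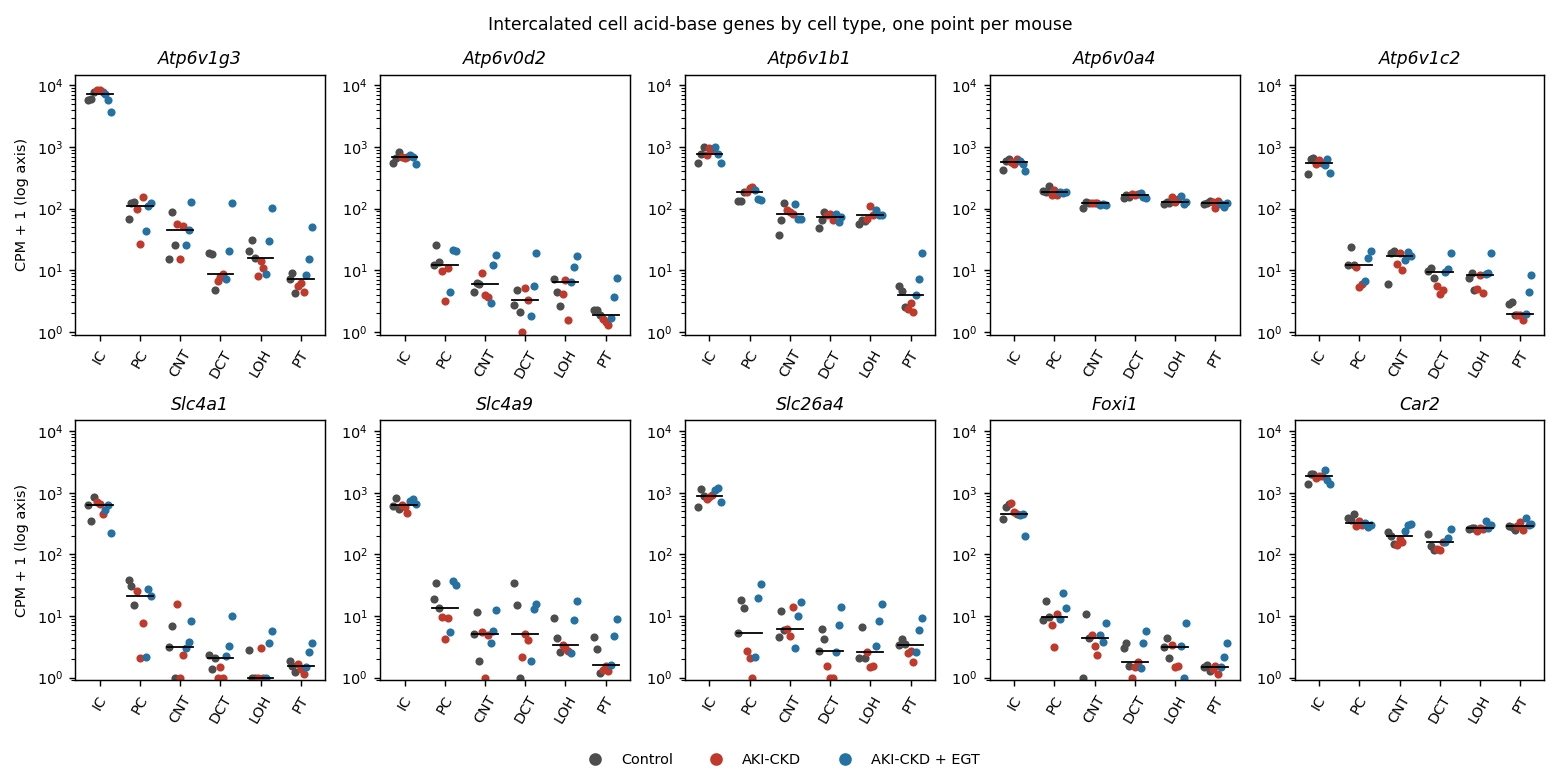
Levels of the 10 members in IC, PC, connecting tubule (CNT), distal convoluted tubule (DCT), loop of Henle (LOH) and PT, as CPM + 1 of summed counts on a log axis, with 1 point per mouse, colours for the groups and a bar at the median. All 10 are highest in IC, and *Car2* and *Atp6v0a4* stay near or above 100 in every type shown.

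Each pump member has a close relative, and these relatives were not concentrated in IC. *Atp6v1g1*, the common G subunit, had a median of 381 CPM (286 to 456) in IC and 501 CPM (424 to 645) in PT. *Atp6v0d1* had 72.1 CPM (63.8 to 101) in IC and 97.9 CPM (91.9 to 111) in PT. *Atp6v1b2* had 126 CPM (97.2 to 179) and 171 CPM (149.9 to 183), and *Atp6v1c1* 56.4 CPM (37.8 to 84.6) and 63.9 CPM (60.1 to 73.4). *Atp6v0a1* was the exception, with 26.0 CPM (17.6 to 38.1) in IC and 16.9 CPM (13.5 to 20.5) in PT. The median of *Atp6v0a1* was also below that of *Atp6v0a4* in every type compared, with 16.9 against 121 CPM in PT and 17.9 against 99.4 CPM in macrophages. How reads shared between near relatives were assigned is not given in the sources used here.

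Over the 15 named cell types, the genes outside the list whose log2(CPM + 1) ran closest to the mean of the members were *Fetub* (Pearson's r = 0.978), *Fam243* (0.977), *Gm21988* (0.975), *Guca2a* (0.972) and *Cpsf4l* (0.970). The points are cell types of the same 9 libraries, and the values are a description. *Guca2a*, which encodes the hormone guanylin, had 385 CPM in IC and 0.351 CPM in PT, whereas *Gm21988* had 1408 and 357 CPM.

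Within IC, *Slc4a1* and *Slc26a4* were rarely counted in the same cell, whereas *Slc4a9* was counted with both. After thinning to 1000 UMIs, 274 of the 1317 cells had *Slc4a1*, and *Slc26a4* was found in 10 of these (3.65%) against 38.5% of the other cells. In single mice the first share ran from 0 to 14.3% and the second from 22.1 to 57.4%, with no overlap over the 9 mice. *Slc4a9* was in 38.3% of *Slc4a1* cells and 35.7% of the others, and in 55.6% of *Slc26a4* cells and 27.4% of the others. These *Slc4a9* shares pool the cells of all mice. In single mice, after thinning, *Slc4a9* was in 21.1 to 46.4% of *Slc4a1* cells and 23.3 to 48.9% of the others. These ranges overlapped, and the direction differed between mice. In the third EGT mouse the shares were 44.4% against 23.3%, and in the first AKI-CKD mouse 35.4% against 48.5%. In the pooled cells with all UMIs *Slc4a9* was in 73.4% of *Slc4a1* cells and 56.9% of the others. In PC, which should lack these genes, *Slc4a9* was in 2 of 32 *Slc4a1* cells (6.25%) and 1.29% of the others after thinning, and in 18 of 54 (33.3%) and 3.18% with all UMIs, so the genes were also found together in PC.

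The other 7 members were compared between IC with *Slc4a1* alone (98 cells, 6 to 16 per mouse) and IC with *Slc26a4* or *Slc4a9* but no *Slc4a1* (628 cells). In type A and type B cells these exchangers are known to be the marks, but 270 cells had both and 321 had neither and stayed out, so the kinds are named here by their genes. The median depth per mouse was 1912 to 4497 UMIs in the former and 3197 to 6784 in the latter. Counts were summed per mouse and kind and tested with edgeR with the mouse as a block. Of 1443 genes tested, 99 passed an adjusted p under 0.05 (6.86%), and 61 of them (4.23%) were lower in *Slc4a1* cells. Of the 7 members, 3 passed, all lower in *Slc4a1* cells.

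*Atp6v1c2* measured 99.5 to 465 CPM (median 299) in the 9 mice in *Slc4a1* cells and 526 to 890.3 CPM (median 628) in the others, with no overlap. It was lower in *Slc4a1* cells in 9 of 9 mice, with a log2 fold change of -1.12 ± 0.18 (SE) and an edgeR adjusted p of 0.00025. *Atp6v1g3* measured 1685 to 9102 CPM (median 4011) against 5209 to 9967 CPM (median 8146). It too was lower in 9 of 9 mice (-0.83 ± 0.18 (SE), edgeR adjusted p = 0.00512), although the ranges of the kinds overlapped. *Car2* measured 781 to 1820.5 CPM (median 1351) against 1676 to 2832 CPM (median 2002) and was lower in 9 of 9 mice (-0.66 ± 0.12 (SE), edgeR adjusted p = 0.00141).

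*Atp6v0d2* had a log2 fold change of -0.51 ± 0.16 (SE) and did not pass (edgeR adjusted p = 0.0694). *Atp6v1b1* (0.14 ± 0.15 (SE)), *Atp6v0a4* (-0.12 ± 0.15 (SE)) and *Foxi1* (-0.17 ± 0.20 (SE)) did not pass either. Cells with *Slc4a1* and no *Slc26a4* (334) were also set against the reverse (552) without using *Slc4a9*, a comparison added after the data were seen. *Atp6v1c2*, *Atp6v1g3* and *Car2* again passed, at -0.88, -0.61 and -0.58, and *Slc4a9* itself had medians of 482 and 799.8 CPM.

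**Figure D2:**
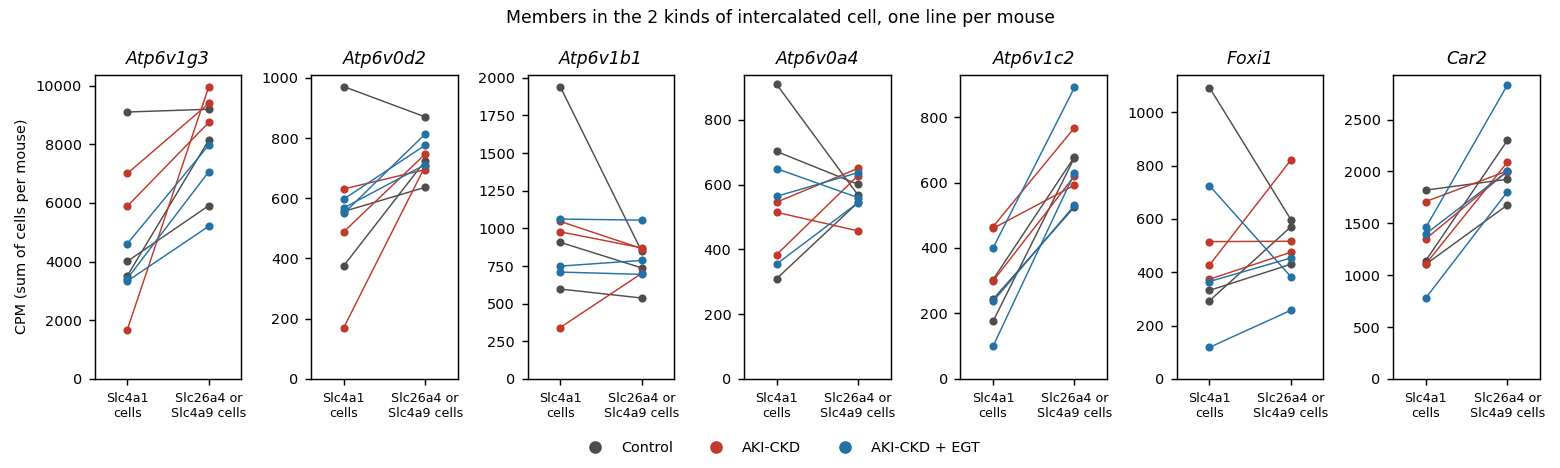
Levels of the members in IC with *Slc4a1* and in IC with *Slc26a4* or *Slc4a9*, in CPM on a linear axis from 0, with 1 line per mouse joining its sums and colours for the groups. The lines of *Atp6v1c2*, *Atp6v1g3* and *Car2* run the same way in all 9 mice.

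Of 12 further pump subunit and accessory genes tested between the kinds, 3 passed, all lower in *Slc4a1* cells: *Atp6v0c* (-0.64 ± 0.14 (SE)), *Atp6ap1* (-0.55 ± 0.15 (SE)) and *Atp6ap2* (-0.90 ± 0.24 (SE)). The catalytic subunit gene *Atp6v1a* measured -0.16 ± 0.15 (SE) and did not pass. Of 10 other acid, bicarbonate and ammonia genes tested, the ammonia channel gene *Rhbg* was higher (0.95 ± 0.18 (SE)), and the membrane carbonic anhydrase genes *Car15* (-4.61 ± 0.23 (SE)) and *Car12* (-1.17 ± 0.19 (SE)) were lower. Among 6 regulators and receptors, *Kit* was higher (3.61 ± 0.29 (SE)), and *Hmx2* and *Insrr* were lower, with medians of 0 CPM in *Slc4a1* cells against 980.2 and 619.7 TMM-scaled CPM. Of 5 PC transport genes *Fxyd4* (1.76 ± 0.31 (SE)) and *Hsd11b2* (1.16 ± 0.33 (SE)) were higher. The rest of the 5 did not pass or share a direction: *Aqp2* (0.95 ± 0.47 (SE)), *Aqp3* (-0.86 ± 0.35 (SE)) and *Scnn1a* (-0.16 ± 0.19 (SE)). Of 9 PT transport genes 0 passed. With single mice left out the call of *Atp6ap2* was lost without the third EGT or the first Control mouse, and those of *Atp6ap1* and *Hsd11b2* without any 1 of 5 mice each. Over 7 alternatives other than left-out mice, the calls of *Rhbg* and *Hsd11b2* held in 6 each, with log2 fold changes down to 0.49 and 0.71. Outside these lists the largest differences among the genes that moved one way in every mouse were *Muc20* (5.26 ± 0.31 (SE)), the water channel gene *Aqp6* (4.77 ± 0.27 (SE)), *Adgrf5* (3.79 ± 0.19 (SE)) and *Mme* (3.41 ± 0.37 (SE)), higher. Lower were *Nbea* and *Syt7*, with medians of 0 against 186 and 226 TMM-scaled CPM.

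Cisplatin and EGT were compared over mice in summed IC counts, with values as CPM of TMM-scaled libraries. All 10 members passed the filter on low counts. Between AKI-CKD and Control mice 0 of 10 passed with edgeR or DESeq2 (0 at an unadjusted p under 0.05). Of all 7792 genes 0 passed with edgeR (0%), 832 (10.7%) had an unadjusted p under 0.05, and DESeq2 called 7. The log2 fold changes ran from -0.17 (*Slc4a9*) to 0.41 (*Atp6v1g3*), with a median of 0.10 beside -0.01 over all genes. *Atp6v1g3* measured 6216, 6101 and 7539.8 CPM in the Control mice, 8919, 9072 and 8442 CPM in the AKI-CKD mice and 7329, 5805 and 4056 CPM in the AKI-CKD + EGT mice. All 3 AKI-CKD mice lay above the Control mice, with a log2 fold change of 0.41 ± 0.20 (SE) and an edgeR adjusted p of 0.467, and of 0.38 without the first Control mouse. It was the only one of 10 members whose groups did not overlap, against 17.9% of all genes. The summed IC markers stood in the same order, at 4795 to 7124 CPM in Control, 7464 to 7864 CPM in AKI-CKD and 3477 to 6279 CPM in AKI-CKD + EGT mice, and the AKI-CKD mice overlapped neither other group. All 12 markers were counted in every mouse, and their part in the values of *Atp6v1g3* was not tested.

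Between AKI-CKD + EGT and AKI-CKD mice 0 of 10 members passed, against 155 of 7792 genes (1.99%), a count that ran from 15 to 457 as single mice were left out and was 0 in cells with at least 4 IC markers. At an unadjusted p under 0.05 there were 2 of 10, *Atp6v1g3* and *Foxi1*, against 1390 of all genes (17.8%), and DESeq2 called 0 of 10. *Atp6v1g3* was lower in all 3 EGT mice (-0.62 ± 0.20 (SE), edgeR adjusted p = 0.109). *Foxi1* measured 393, 589 and 624 CPM in the Control mice, 702, 515 and 485 CPM in the AKI-CKD mice and 444, 447 and 210.2 CPM in the AKI-CKD + EGT mice (-0.65 ± 0.26 (SE), edgeR adjusted p = 0.190). Without the third EGT mouse the log2 fold changes were -0.42 and -0.35. Without the first EGT mouse *Atp6v1g3* passed, at -0.84 with an edgeR adjusted p of 0.00763, and over the alternatives other than left-out mice the adjusted p ran from 0.0364 to 0.369.

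The exchangers did not share a direction. *Slc4a1* measured 667, 354 and 819 CPM in the Control mice, 746, 693 and 483 CPM in the AKI-CKD mice and 542, 627 and 239.6 CPM in the AKI-CKD + EGT mice (-0.47 ± 0.31 (SE) with EGT, edgeR adjusted p = 0.459). *Slc4a9* measured 646, 830.2 and 527 CPM in the Control mice, 665, 623 and 500.1 CPM in the AKI-CKD mice and 760.1, 789 and 714 CPM in the AKI-CKD + EGT mice (0.34 ± 0.19 (SE), edgeR adjusted p = 0.366). *Slc26a4* measured 619, 1164 and 842 CPM in the Control mice, 825, 905 and 1000.3 CPM in the AKI-CKD mice and 1150.5, 1166 and 771 CPM in the AKI-CKD + EGT mice (0.18 ± 0.22 (SE), edgeR adjusted p = 0.730). With cisplatin the log2 fold changes of *Slc4a1*, *Slc4a9*, *Slc26a4* and *Foxi1* were 0.0821, -0.17, 0.0515 and 0.0927, and 0.17, -0.19, -0.14 and -0.0832 without the first Control mouse. With EGT and without the third EGT mouse they were -0.13 for *Slc4a1*, 0.38 for *Slc4a9* and 0.35 for *Slc26a4*. The EGT and AKI-CKD mice did not overlap for *Slc4a9*, *Atp6v1g3* and *Foxi1*, 3 of 10 members against 20.2% of all genes, and overlapped for the other 7. The AKI-CKD mice serve in both comparisons, so a high value in them enters both with opposite signs.

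For *Car2*, IC levels were 1459.8, 2073 and 1889 CPM in the Control mice, 1846, 2007 and 2008 CPM in the AKI-CKD mice and 2409, 1608 and 1495 CPM in the AKI-CKD + EGT mice, overlapping in both comparisons (0.11 ± 0.20 (SE) and -0.09 ± 0.20 (SE)). *Atp6v1b1*, the B subunit of the pump's catalytic head, measured 572, 790.1 and 943 CPM in the Control mice, 769, 1011 and 1010.3 CPM in the AKI-CKD mice and 1014, 759 and 596 CPM in the AKI-CKD + EGT mice. *Atp6v1c2*, a C subunit, measured 387, 637 and 621 CPM in the Control mice, 547, 655 and 586 CPM in the AKI-CKD mice and 511, 630.4 and 405 CPM in the AKI-CKD + EGT mice. *Atp6v0d2*, a d subunit of the membrane part, measured 586, 669.6 and 802 CPM in the Control mice, 713, 699 and 736 CPM in the AKI-CKD mice and 749.9, 691 and 561 CPM in the AKI-CKD + EGT mice. *Atp6v0a4*, the a4 subunit of the membrane part, measured 456, 602 and 614 CPM in the Control mice, 602, 555 and 689 CPM in the AKI-CKD mice and 614, 526 and 444 CPM in the AKI-CKD + EGT mice. In each of these 4 the groups overlapped in both comparisons. They had log2 fold changes of 0.07 to 0.28 with cisplatin and -0.24 to -0.11 with EGT, none past the test. Without the first Control mouse the values with cisplatin were 0.113 for *Atp6v1b1*, -0.0714 for *Atp6v1c2*, 0.0240 for *Atp6v0a4*, -0.0263 for *Atp6v0d2* and -0.0134 for *Car2*. Without the third EGT mouse the values with EGT were -0.0676 for *Atp6v1b1*, -0.0529 for *Atp6v1c2*, -0.108 for *Atp6v0a4*, 0.0109 for *Atp6v0d2* and 0.0411 for *Car2*, so that the signs of the last pair turned, as did those of *Atp6v1c2*, *Atp6v0d2* and *Car2* without the Control mouse.

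**Figure D3:**
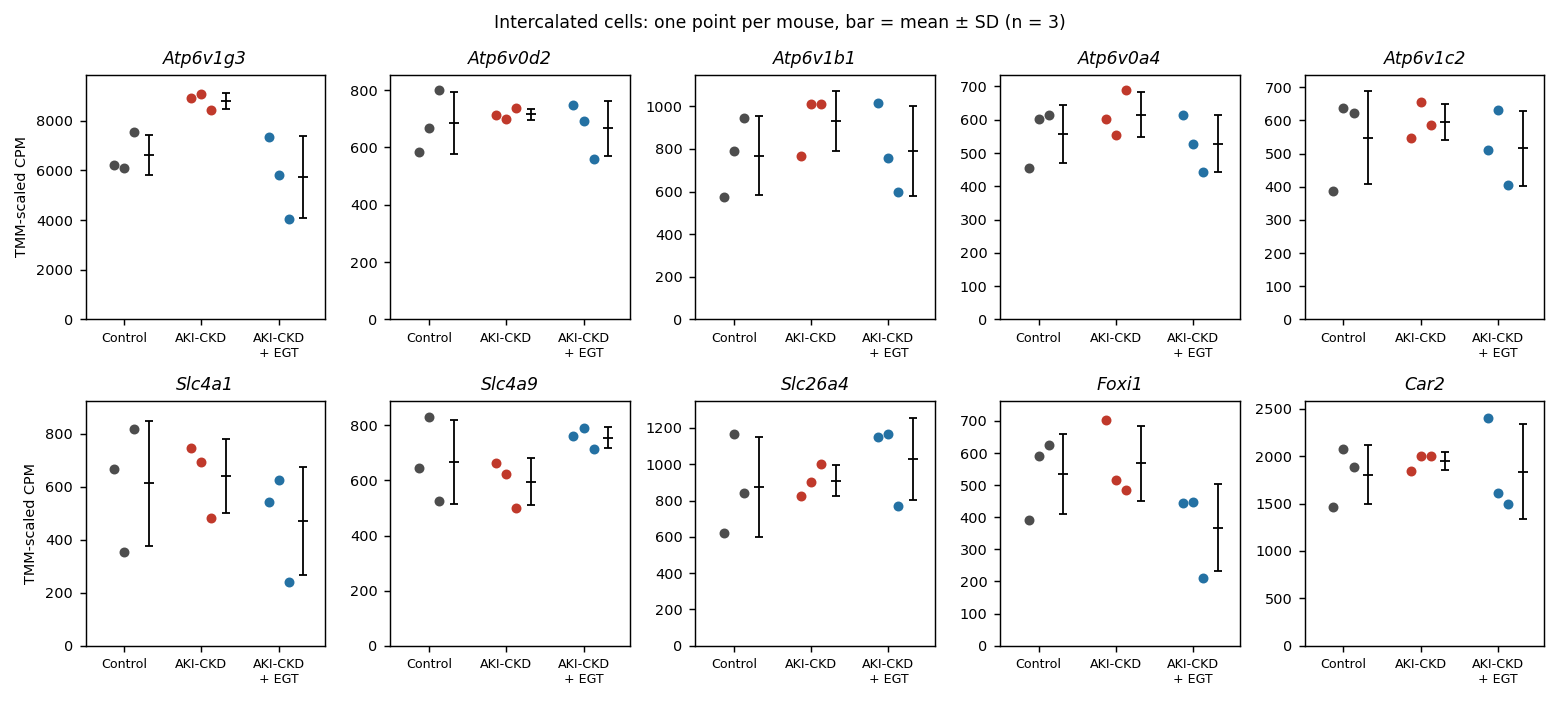
IC levels of the 10 members in the 3 groups, in CPM of TMM-scaled libraries, with 1 point per mouse and bars for mean ± SD (n = 3). The AKI-CKD mice lie above the Control mice for *Atp6v1g3* only.

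Markers of other cells, and mitochondrial UMIs, varied between the IC sums of single mice. The 12 PT markers made up 1.71 to 4.66% of IC UMIs in Control, 1.13 to 3.46% in AKI-CKD and 2.89 to 5.12% in AKI-CKD + EGT mice, with 12 of the 12 counted in every mouse. These ranges overlapped, and the third EGT mouse and the first Control mouse had the highest shares. Mitochondrial UMIs made up 1.25 to 5.19%, 1.25 to 2.05% and 2.29 to 7.09%. All 12 PT transport genes had a negative log2 fold change with cisplatin (median -0.48) and all 12 a positive one with EGT (median 0.82), opposite to *Atp6v1g3*, and 1 of them, *Acsm2*, passed with EGT. The 7 PC markers, all counted in every mouse, summed to 833 to 1238 CPM in Control, 557 to 794 CPM in AKI-CKD and 411 to 1412 CPM in AKI-CKD + EGT mice, lower in AKI-CKD than in Control mice with no overlap. The part of PT and PC RNA in the IC values was not tested. Erythroid genes, which matter for *Slc4a1*, were at most 0.00494% of IC UMIs in any mouse, and 2 of 6 were at 0 in all 9.

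In the wider lists 0 genes passed with cisplatin in IC. With EGT 0 of 17 further pump subunits passed (median -0.13). *Nr3c2*, the mineralocorticoid receptor through which aldosterone acts, was the regulator that rose with EGT. It measured 98.6, 96.1 and 87.2 CPM in the Control mice, 41.9, 26.5 and 30.2 CPM in the AKI-CKD mice and 105, 135 and 131 CPM in the AKI-CKD + EGT mice, and all EGT mice lay above all AKI-CKD mice (1.89 ± 0.23 (SE), edgeR adjusted p = 0.00081). Without the third EGT mouse it had 1.85 and still passed (edgeR adjusted p = 0.00600). With cisplatin it had -1.49 ± 0.24 (SE) and did not pass (edgeR adjusted p = 0.0513). In PC *Nr3c2* measured 411 ± 104 CPM in Control, 259.8 ± 51.3 CPM in AKI-CKD and 357 ± 11.9 CPM in AKI-CKD + EGT mice (SD, n = 3), above its IC level in each group, and the part of PC RNA in its IC values was not tested. With cells required to carry at least 4 IC markers the adjusted p with EGT was 0.125, the highest of the alternatives, which started at 1.52e-09.

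*Car15*, a membrane carbonic anhydrase gene, fell with EGT. It measured 1541, 2145 and 1570.4 CPM in the Control mice, 3462, 2446 and 3348 CPM in the AKI-CKD mice and 1674, 1551 and 1379 CPM in the AKI-CKD + EGT mice (-1.01 ± 0.19 (SE), edgeR adjusted p = 0.0127), and the call was lost without the first or the third AKI-CKD mouse, without the third EGT mouse and with at least 4 IC markers. The transcription factor gene *Hmx2* also fell (-0.99 ± 0.25 (SE), edgeR adjusted p = 0.0469). *Car4* (0.99 ± 0.23 (SE), edgeR adjusted p = 0.0382) and *Car14* (1.37 ± 0.35 (SE), edgeR adjusted p = 0.0492), which also encode membrane carbonic anhydrases and are known in PT, rose, in the same direction as the PT genes above. The calls of *Hmx2*, *Car4*, *Car14* and *Acsm2* were lost without any 1 of the AKI-CKD mice and without the second or the third EGT mouse, and those of *Car4* and *Car14* also in IC with at least 3 IC markers (adjusted p = 0.189 and 0.229). *Car15* and *Hmx2* were also higher in the *Slc26a4* or *Slc4a9* cells than in the *Slc4a1* cells. The IC means of *Slc26a4* and *Slc4a9* themselves were 910 and 596 CPM in AKI-CKD and 1029 and 754 CPM in AKI-CKD + EGT mice, neither past the test. The part of the mix of kinds in the values of *Car15* and *Hmx2* was not tested.

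In PC 0 of 10 members passed in either comparison, against 0.0214% and 0% of 9360 genes. At an unadjusted edgeR p under 0.05 there were 3 and 3 of 10 members, against 14.1% and 14% of all genes, and DESeq2 called 0 and 0. *Atp6v1b1* measured 136, 136 and 171 CPM in the Control mice, 191, 224 and 230.3 CPM in the AKI-CKD mice and 204, 142 and 145 CPM in the AKI-CKD + EGT mice in PC, and the AKI-CKD mice lay above the Control mice (0.54 ± 0.20 (SE), edgeR adjusted p = 0.278). With EGT it had -0.40 ± 0.20 (SE), and -0.33 without the third EGT mouse. The largest PC fold changes belonged to *Slc26a4* and *Slc4a9* and rest on few UMIs. *Slc26a4* had 4, 19 and 9 UMIs in Control, 2, 1 and 0 in AKI-CKD and 1, 22 and 73 in AKI-CKD + EGT mice (edgeR adjusted p = 0.260 and 0.171). *Slc4a9* had 16, 37 and 9 UMIs in Control, 10, 3 and 5 in AKI-CKD and 4, 43 and 71 in AKI-CKD + EGT mice (edgeR adjusted p = 0.284 and 0.220). With EGT *Slc26a4* had a log2 fold change of 3.98 ± 0.99 (SE) and *Slc4a9* 1.89 ± 0.61 (SE). Without the third EGT mouse these were 3.04 and 1.59 (edgeR adjusted p = 0.456 and 0.554). Groups did not overlap for 5 of 10 members with cisplatin, 1 higher and 4 lower (all genes, 22%), and for 0 of 10 with EGT (all genes, 18.9%). The 4 lower were *Atp6v0d2*, *Slc26a4*, *Slc4a9* and *Car2*. Of these *Car2* had the most UMIs and did not pass. It measured 368 to 413 CPM in the PC of Control mice (1064 UMIs). After cisplatin alone its range was 304 to 356 CPM (836 UMIs). With EGT added to cisplatin it was 272 to 340 CPM (1309 UMIs). Markers of other cells varied between the PC sums of single mice too. All 12 PT transport genes had a negative log2 fold change with cisplatin in PC (median -0.59) and all 12 a positive one with EGT (median 0.65), with 0 past the test. The 12 IC markers made up 0.171 to 0.234% of PC UMIs in Control, 0.252 to 0.286% in AKI-CKD and 0.132 to 0.289% in AKI-CKD + EGT mice. The AKI-CKD mice lay above the Control mice, as for *Atp6v1b1*. It was the only member with a positive log2 fold change with cisplatin in PC, and the other 9 had negative ones. The median of the 10 was -1.01, beside -0.02 over all genes. Erythroid genes were 0 to 0.0116% of PC UMIs in Control, 0 to 0.000164% in AKI-CKD and 0.00102 to 0.00476% in AKI-CKD + EGT mice. In the same sums *Slc4a1* had -1.18 ± 0.72 (SE) with cisplatin and 0.54 ± 0.72 (SE) with EGT and did not pass. The part of these markers in the members' PC values was not tested.

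In the sum of all kept cells 0 of 10 members passed, against 0.0199% and 0.00496% of 20144 genes. At an unadjusted edgeR p under 0.05 there were 0 and 2 of 10, against 8.02% and 12.7% of all genes, and DESeq2 called 0 and 0. The log2 fold changes with EGT ran from -0.27 for *Atp6v0a4* to 1.18 for *Slc4a9* (SE 0.56, edgeR adjusted p = 0.401). Without the third EGT mouse, which had the most IC, they were -0.23 and 0.64, and *Atp6v1g3* went from 0.0625 to -0.37. For the 7 members with most of their RNA in IC, more IC and more RNA per IC cannot be told apart in this sum, whereas *Atp6v0a4* and *Car2* lie mostly in PT. Markers of other cells also moved in it. With EGT 10 of 10 PC transport genes had a positive log2 fold change (median 0.48) and 9 of 12 PT transport genes a negative one (median -0.29). All 5 erythroid genes tested had a negative value with cisplatin and a positive one with EGT, none past the test, where *Slc4a1* had 0.51 ± 0.39 (SE) and 0.0489 ± 0.39 (SE). Their part in the members' values was not tested.

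IC made up 0.587%, 0.601% and 0.289% of kept cells in Control, 0.635%, 0.560% and 0.373% in AKI-CKD and 0.448%, 0.759% and 2.10% in AKI-CKD + EGT mice. The difference with cisplatin was 0.0302 percentage points (exact permutation test, two-sided, p = 0.7) and with EGT 0.579 (exact permutation p = 0.3), of which 0.0804 remained without the third EGT mouse. Counting only IC with at least 3 IC markers, the difference with EGT was 0.169 percentage points. As a share of IC and PC together IC made up 33.2%, 32.4% and 25.6% in Control, 33.9%, 32.1% and 38.3% in AKI-CKD and 25.7%, 30.6% and 34.7% in AKI-CKD + EGT mice. The difference with cisplatin was then 4.40 percentage points. With EGT the direction turned, with a difference of -4.50 percentage points (exact permutation p = 0.3). With 3 mice against 3 the smallest p is 0.1. Cells with *Slc4a1* were 34.6%, 11.8% and 34.1% of typed IC, those with *Slc4a1* alone or with *Slc26a4* or *Slc4a9* alone after thinning, in Control mice. They were 29.1%, 34.4% and 24.6% in AKI-CKD and 21.3%, 27.0% and 11.0% in AKI-CKD + EGT mice. The differences were 2.50 (exact permutation p = 0.9) and -9.60 percentage points (exact permutation p = 0.2), the latter -5.23 without the third EGT mouse. Without thinning the shares were 11.1%, 23.5% and 12.5% in AKI-CKD and 17.6%, 15.5% and 9.55% in AKI-CKD + EGT mice, and the difference with EGT was -1.49 percentage points (exact permutation p = 0.8).

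**Figure D4:**
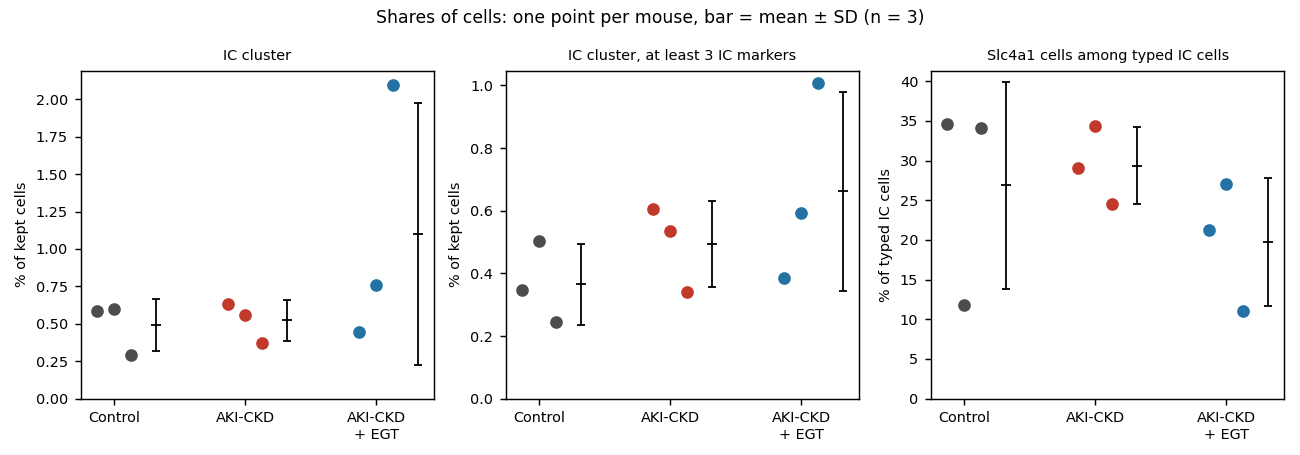
Share of IC among kept cells, of IC with at least 3 IC markers among kept cells, and of *Slc4a1* cells among typed IC, in percent, with 1 point per mouse and bars for mean ± SD (n = 3). The third AKI-CKD + EGT mouse has the highest share of IC, 2.10%, and the lowest share of *Slc4a1* cells, 11.0%.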

How the data were processed

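For each of the 9 mice the authors deposited 1 table of UMI counts by gene and cell, not normalized or pooled. The submitters' processing notes name PISA 1.0 and GRCm39, and the aligner is not given in the sources used here. File totals ran from 70106161 to 101525691 UMIs. The lowest cell had 1072 UMIs in the third AKI-CKD + EGT mouse and 1000 in each of the others, so a minimum had been applied. Whether the minimum differed for that mouse was not tested. Cells with at least 1000 UMIs, 500 genes and at most 15% mitochondrial UMIs were kept. The paper states the same limits but retained fewer cells, and the difference was not resolved. For clustering, 2000 variable genes were chosen with scanpy 1.11.5, without the members, ribosomal and mitochondrial genes and *Malat1*. The 30 components, Harmony by library and the graph of neighbours were computed with custom code. The graph was clustered by the Leiden method (igraph 0.11.9, resolution 1.1). A cluster was named when at least 3 markers of a type were raised 2-fold. Scrublet called 0 to 3 cells in 8 libraries and 4464 in 1, so it did not work here, and doublets were not removed. Counts were summed per mouse and tested with edgeR 4.0.16 (quasi-likelihood, TMM, Benjamini-Hochberg over all genes tested, all 9 mice), or DESeq2 1.42.0 as an alternative. Shares were compared by exact permutation over mice. The p-values of group comparisons set a difference against the spread between mice. Those between kinds set the difference within mice against how it varied from mouse to mouse. With 1 library per mouse, animal and library cannot be told apart in this spread.

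Members and lists were chosen with earlier results of these data known. Text names all members, the relatives of the pump genes, up to 4 list genes a direction that passed in IC and the 5 genes most alike. It also names the 5 genes each way between kinds that were past the threshold, with a mean log2 CPM of 4 or more and 1 direction in every mouse. List genes between kinds were named in addition. Doses are those of the study's methods. Correlations between same-numbered mice ran from -0.453 to 0.379 and were not over 0.1 in every pair, so the numbers were not used as pairs.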

Additional observations from a re-analysis of the deposited data

How the results depend on the processing

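With cisplatin in IC (0 genes) there were 7 by DESeq2, 130 without the low-count filter, 33 in a fit of the 6 mice, 2 with library sizes without mitochondrial, ribosomal and *Malat1* counts, 2 without PT genes in the library sizes, 1 without Harmony and 0 to 4 with single mice left out. With EGT in IC (155) there were 101 by DESeq2, 535 without the filter, 309 with members among the variable genes, 0 with at least 4 IC markers and 15 to 457 with single mice left out. In PC with cisplatin (2) there were 34 by DESeq2, 226 without the filter, 11 in 6 mice and 0 to 2 with mice left out, and with EGT (0) 13, 379 without the filter and 0 to 289 with mice left out. In all cells with cisplatin (4) there were 140 by DESeq2, 29 without the filter, 0 in 6 mice and 0 to 11 with mice left out, and with EGT (1) 243, 5, 0 and 0 to 1. Between kinds (99) there were 430 without the filter, 379 without *Slc4a9* and 72 to 112 with mice left out. The causes were not tested.

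Replicate numbers share no batch in the labels, and same-numbered mice correlated at -0.224 to 0.0551 in IC, -0.345 to 0.123 in PC and -0.453 to 0.379 in all cells, not over 0.1 in every pair, so the numbers were not taken to pair the mice. With the replicate number as a block there were 0 and 45 calls in IC, 1 and 1 in PC and 0 and 0 in all cells.

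Of the members in IC, *Atp6v1g3* passed with EGT without the filter (adjusted p = 0.0364) and without the first EGT mouse, and *Foxi1* without the filter (0.0474). In PC, on few UMIs, *Slc26a4* had edgeR adjusted p of 0.00157 to 0.384 with cisplatin and 2.61e-07 to 0.377 with EGT over the alternatives. *Slc4a9* had 0.0144 to 0.419 and 0.000841 to 0.411. With single mice left out, the edgeR adjusted p with EGT ran over 0.0177 to 0.456 (*Slc26a4*) and 0.0231 to 0.554 (*Slc4a9*). *Atp6v1c2*, *Atp6v1g3* and *Car2* passed between kinds under every alternative run and with each mouse left out, and *Atp6v0d2* passed too without the filter, with at least 4 IC markers and without the third Control mouse. Signs changed only for values that had not passed. With cisplatin in IC these were *Atp6v0d2* (-0.00165) and *Foxi1* (-0.00686) with at least 3 IC markers and no PT genes in the library sizes, *Slc4a1* (-0.0183 without Harmony, -0.0564 and -0.0705 with 3 markers) and *Slc26a4* (-0.00100 with 4 markers, -0.0672 and -0.0781 with 3). With EGT they were *Atp6v0d2* (0.0142, 0.0490 and 0.0708), *Slc26a4* (-0.0410 with members among the variable genes) and *Car2* (0.0368 and 0.0581). Between kinds they were *Atp6v1b1* (-0.321 without the filter, -0.0686 with 4 markers) and *Atp6v0a4* (0.0196 without *Slc4a9*). With single mice left out, cisplatin values ran over -0.0263 to 0.183 (*Atp6v0d2*), -0.0714 to 0.246 (*Atp6v1c2*), -0.213 to 0.332 (*Slc4a1*), -0.313 to 0.0156 (*Slc4a9*), -0.140 to 0.315 (*Slc26a4*), -0.0878 to 0.203 (*Foxi1*) and -0.0134 to 0.218 (*Car2*), and EGT values over -0.201 to 0.0109 (*Atp6v0d2*) and -0.337 to 0.0411 (*Car2*).

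The difference in IC share with cisplatin was -0.0286 percentage points with members among the variable genes, 4.40 as a share of IC and PC cells and -0.0713 to 0.105 with mice left out. It was also wider with at least 3 or 4 IC markers and without Harmony. With at least 4 IC markers the shares were 0.405%, 0.572% and 0.289% in Control and 0.730%, 0.632% and 0.352% in AKI-CKD mice. With EGT (0.579) the difference was -4.50 as a share of IC and PC cells, 0.169 and 0.139 with at least 3 and 4 IC markers and 0.313 without Harmony. It was 1.17 with members among the variable genes and 0.0804 to 0.905 with mice left out. The *Slc4a1* share with cisplatin (2.50) was -1.48 without *Slc4a9*, 0.743 without thinning, 1.21 thinned to 1500 UMIs, 6.87 with at least 2 UMIs of the defining genes and -5.02 to 6.38 with mice left out. With EGT (-9.60) it was -1.49 without thinning, -5.78 thinned to 1500 UMIs, -14.1 with at least 2 UMIs and -13.2 to -5.23 with mice left out. IC definitions by 3 or 4 markers, PT-free library sizes and typing without *Slc4a9* were chosen after seeing the data. A planned definition by marker and PT UMIs left 31 cells and could not be fitted. DESeq2 gave no adjusted p for *Slc26a4* and *Slc4a9* in PC.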
